A study of Mus musculus with 34 samples.

Results

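The 10 genes described here encode the pore-forming subunits of the AMPA and NMDA glutamate receptors. They are Gria1, Gria2, Gria3 and Gria4 for the AMPA receptor, and Grin1, Grin2a, Grin2b, Grin2c, Grin2d and Grin3a for the NMDA receptor. They were chosen by symbol, with no measured value in the rule, and all 10 were found in each of the 5 count tables, which list between 11808 and 53465 genes. All 10 passed the filter on low counts in every comparison.

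The libraries hold ribosome-bound mRNA of interneurons of C57/BL6 mice at postnatal day 60. The tissue label reads cortex and hippocampus, while the protocol speaks of cortices. In RiboTag mice, Cre recombinase switches on an HA-tagged form of the ribosomal protein Rpl22, and tagged ribosomes are pulled down with their mRNA. Cre was driven in somatostatin (SST) interneurons by the Sst gene or in parvalbumin (PV) interneurons by the Pvalb gene, and every group carried 1 of these drivers and the RiboTag allele. The labels name 5 batches and 11 groups with 34 libraries in all. SST groups with the genotype Sst:Cre/Ribotag received pentylenetetrazol (PTZ, n = 3) or saline (n = 4) in batch 2, and contextual fear conditioning (CFC, n = 3) or the home cage (n = 3) in batch 4. The SST group with the genotype Sst:Cre/Nr4a1-f/f/Ribotag (labelled Nr4a1 cKO here, n = 3) was kept in the home cage and is all of batch 5. PV groups with the genotype PV:Cre/Ribotag received PTZ (n = 4) or saline (n = 3) in batch 1, saline (n = 2) in batch 2, and CFC (n = 3) or the home cage (n = 3) in batch 3. The PV group with the genotype PV:Cre/Nr4a1-f/f/Ribotag (n = 3) was kept in the home cage, also in batch 3. PTZ blocks GABA-A receptors and brings on widespread excitation, and CFC pairs a place with foot shocks. The study asked which mRNAs such stimuli change in each cell type, and what the loss of Nr4a1, an activity-induced nuclear receptor, does to them.

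AMPA receptors are tetramers that carry most fast excitation. Receptors that contain the edited product of Gria2 let little calcium through, and receptors without it are calcium permeable, a form for which cortical PV interneurons are known. NMDA receptors need the Grin1 product together with Grin2 subunits, which set kinetics and block by magnesium; the Grin3a product takes the place of Grin2 subunits in some receptors and lowers their calcium permeability.

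The residue that governs calcium flow lies at a matching place in the pore loop of each subunit, and its codon is what sets the families and Grin3a apart in sequence. The 27 coding bases around that codon are shown for 9 of the members, read from the GENCODE M21 annotation on GRCm38, with the codon in capitals and its coordinates beside the name. The AMPA codon is the glutamine codon (CAG or CAA) that RNA editing can recode in Gria2 to give arginine. Grin1, Grin2a, Grin2c and Grin2d have the asparagine codon AAC there, and Grin3a has the glycine codon GGC.
Gria1, chr11:57243094-57243096, plus strand: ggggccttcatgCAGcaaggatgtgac
Gria2, chr3:80706911-80706913, minus strand: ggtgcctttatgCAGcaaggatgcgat
Gria3, chrX:41610265-41610267, plus strand: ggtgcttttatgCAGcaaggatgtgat
Gria4, chr9:4464137-4464139, minus strand: ggtgcctttatgCAAcaaggatgtgac
Grin1, chr2:25297386-25297388, minus strand: ggcgtcctgctcAACtctggcattggg
Grin2a, chr16:9653561-9653563, minus strand: ggcctggtcttcAACaattctgtgccc
Grin2c, chr11:115253863-115253865, minus strand: gcactggtcttcAACaactctgttccc
Grin2d, chr7:45854393-45854395, minus strand: gccctggtgttcAACaactccgtgcca
Grin3a, chr4:49770584-49770586, minus strand: gcccttctgtttGGCagaacagcagcc
These 9 codons lie in coding exons; in Gria2 it is codon 607 and in Grin3a codon 729 of the transcript read. The tables count reads per gene, so they hold no measure of editing at the Gria2 codon.

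Total counts per library ran from 4933110 to 27282912. Levels are in CPM, read counts scaled to each library's total after TMM adjustment of the libraries fitted together. A gene is called changed where the adjusted p of edgeR's quasi-likelihood test, corrected over all genes tested, was under 0.05. Sst separated the Cre lines, at 1750 to 6080 CPM over SST groups with intact Nr4a1, against 30.2 to 464 CPM over PV groups. Pvalb did not separate them in every table, with 87.3 to 478 CPM in SST home cage libraries of batch 4, against 155 to 190 CPM in PV home cage libraries of batch 3. In PV saline libraries of batch 1 it was at 15.9 to 22.1 CPM, below Sst in the same libraries. These values were scaled within each batch. Fos was higher in every stimulated library than in every control of its batch and line. Nr4a1 in libraries labelled cKO overlapped the home cage range in both lines: 6.68, 16.5 and 7.65 CPM in PV cKO libraries, against 5.07, 7.43 and 11.7 CPM in PV home cage libraries, and 14.2, 11.3 and 17.6 CPM in SST cKO libraries, against 23.8, 15.3 and 13.9 CPM in SST home cage libraries. Counts per whole gene do not show whether part of the gene was deleted, so the label was not checked by them. Of the markers of other cell types, Emx1, C1qa, Aif1, Cldn5, Pecam1, Kdr and Tagln are not listed in the table of batch 2. Separate animals are not stated for the libraries of a group, and the tests weigh differences against the spread of these libraries alone, which may be technical. In such pull-downs, fewer cells of a type and less RNA per cell cannot be told apart.

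The 2 Cre lines were first compared after saline within batch 2 (SST n = 4, PV n = 2), where no batch separates them. Sequencing depth did separate them, with total counts of 13763931 to 18367658 in SST libraries, against 6161764 and 4933110 in PV libraries. The part of depth in the result was not tested. Of the 10 subunit genes, 6 were called higher and 1 lower in SST libraries; of the 11784 genes tested, 53.1% were called, 26.0% higher and 27.1% lower. Grin3a differed most among the 10, and Grin2c was the one called lower. The median log2 fold change of the 10 was 0.57, against 0.01 over all genes tested. PV saline had only 2 libraries; values without 1 of them assume that the lone library varies like the other groups, and are given to show how far a size rests on 1 library.

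Among the AMPA subunits, Gria2 had 595, 838, 747 and 730 CPM in SST saline libraries, against 279 and 345 CPM in PV saline libraries. Each SST library was above both PV libraries. The log2 fold change was 1.22 ± 0.15 (SE, adjusted p = 3.33e-05), or 2.33-fold.
Gria1, the subunit best known from synapses strengthened by activity, had 1030, 918, 967 and 896 CPM in SST libraries, against 639 and 477 CPM in PV libraries. It rose by 0.77 ± 0.13 on the log2 scale (adjusted p = 0.000399) with no overlap.
Gria3 had 961, 1110, 1050 and 984 CPM in SST libraries, against 505 and 761 CPM in PV libraries. It was also higher in each SST library, by 0.70 ± 0.15 (adjusted p = 0.0025), and the size rested on the PV libraries: it was 0.42 without PV replicate 1 and 1.04 without PV replicate 2.
Gria4, whose product forms fast receptors in many interneurons, had 251, 264, 233 and 228 CPM in SST libraries, against 215 and 247 CPM in PV libraries. The ranges overlapped, and the difference of 0.08 had a 95% interval of -0.18 to 0.34 (adjusted p = 0.583).

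Among the NMDA subunits, Grin3a had 1130, 1040, 1080 and 1050 CPM in SST saline libraries, against 17.4 and 4.49 CPM in PV saline libraries. The PV values rest on 115 and 21 reads, against 14579 to 19741 reads per SST library. The log2 fold change was 6.55 ± 0.37 (adjusted p = 1.49e-07), about 93.7-fold; it was 7.89 without PV replicate 1 and 5.96 without PV replicate 2.
Grin2a had 391, 421, 494 and 409 CPM in SST libraries, against 258 and 289 CPM in PV libraries, and Grin2b had 347, 367, 481 and 442 CPM in SST libraries, against 305 and 279 CPM in PV libraries. Both were higher in each SST library. Grin2a, the main Grin2 subunit of the adult forebrain together with Grin2b, differed by 0.65 ± 0.12 (adjusted p = 0.000938). Grin2b differed by 0.49 ± 0.14 (adjusted p = 0.0138), and this call was lost with a replicate block (0.38, adjusted p = 0.0901).
Grin2c, known mainly from cerebellar granule cells and astrocytes, had 1.57, 1.24, 1.85 and 1.54 CPM in SST libraries, against 5.44 and 8.12 CPM in PV libraries. Its log2 fold change was -2.12 ± 0.37 (adjusted p = 0.000532), and rested on 20 to 29 reads per SST library and on 36 and 38 reads in the PV libraries. The summed level of the 12 astrocyte markers was 1560 to 1600 CPM in SST libraries, against 1390 to 1640 CPM in PV libraries, so those ranges overlapped.
Grin1, the obligatory subunit, had 464, 470, 583 and 538 CPM in SST libraries, against 465 and 759 CPM in PV libraries. The values overlapped, with a difference of -0.25 (95% interval -0.63 to 0.13, adjusted p = 0.241). With 1 PV library it was -0.57 (adjusted p = 0.00282) without PV replicate 1 and 0.16 without PV replicate 2. Grin2d, an interneuron-enriched Grin2 subunit, had 21.7, 17.3, 22.8 and 20.3 CPM in SST libraries, against 14.5 and 21.4 CPM in PV libraries. Its difference of 0.20 had a 95% interval of -0.28 to 0.69 (adjusted p = 0.463).

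**Figure D1:**
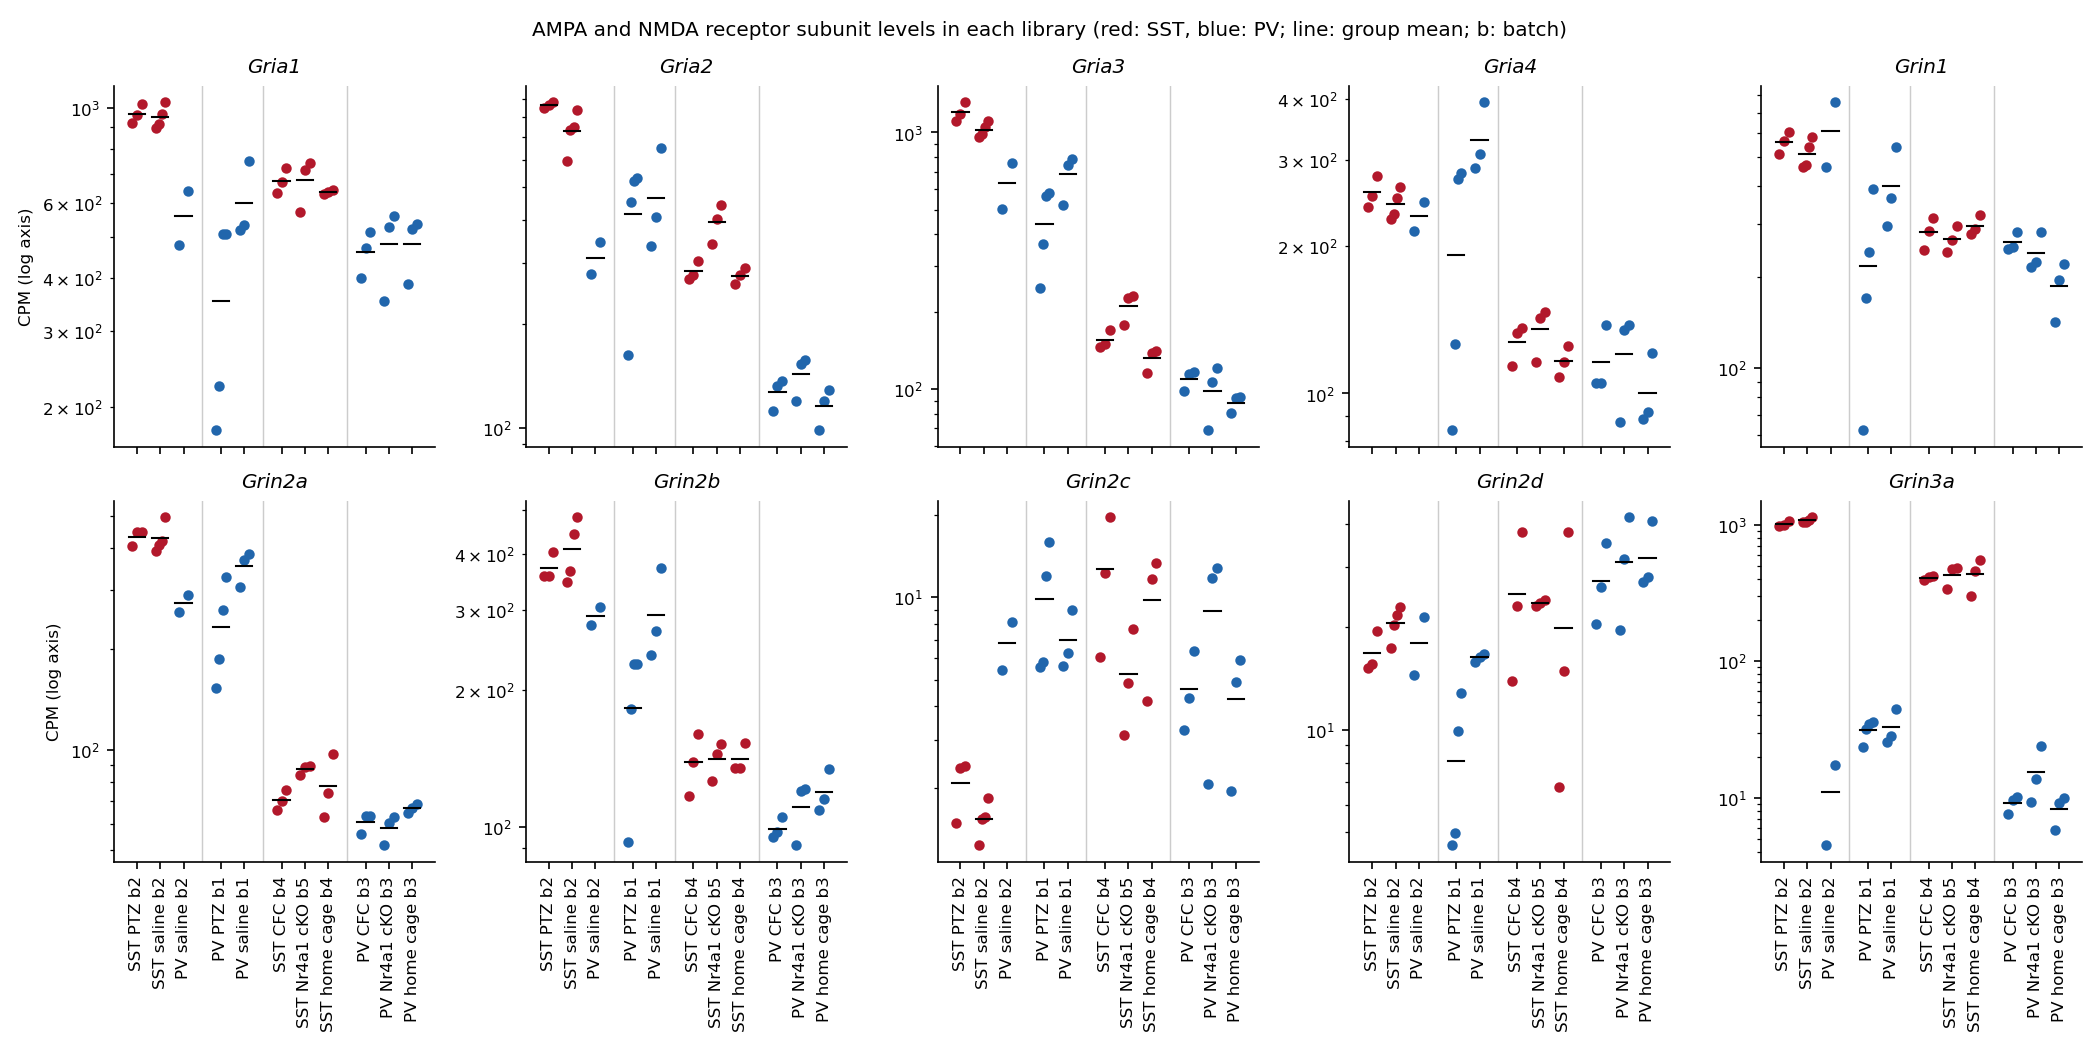
CPM on log axes for each member in every library (points; red SST, blue PV) with group means (lines), in 4 blocks: batch 2, batch 1, batches 4 and 5, and batch 3. Grin3a is at 299 CPM or more in every SST library and at 44.6 CPM or less in every PV library; heights in different blocks come from separately scaled tables and cannot be compared closely.

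The home cage libraries gave a second comparison of the lines that shares no library with the first, but SST (n = 3) was batch 4 and PV (n = 3) batch 3, so batch and line cannot be told apart in it. Here 3 of the 10 members were called higher and 0 lower; over all 16081 genes tested 35.7% were called, 17.7% higher and 18.0% lower. With DESeq2 3 members were among the 6337 genes called, and with limma voom 3 were among 5289. The median log2 fold change of the 10 was 0.26, against 0.07 over all genes. Grin3a and Gria2 were called higher in both comparisons, which is 2 of the 7 members called after saline and 2 of the 3 called in the home cage. The share of all genes called higher in both was not counted, so this overlap is not read as a trait of the subunits.

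Grin3a had 422, 268 and 502 CPM in SST home cage libraries, against 9.6, 10.7 and 6.16 CPM in PV home cage libraries. No SST library came near the PV range, and the log2 fold change was 5.47 ± 0.33 (adjusted p = 7.95e-09).
Gria2 had 256, 234 and 265 CPM in SST libraries, against 125, 106 and 137 CPM in PV libraries. It differed by 1.04 ± 0.13 (adjusted p = 1.9e-05), again with each SST library above each PV library.
Grin1 had 266, 249 and 292 CPM in SST libraries, against 231, 212 and 151 CPM in PV libraries. It rose by 0.44 ± 0.15 (adjusted p = 0.0322), a call that was lost with only the compared groups fitted (adjusted p = 0.0801), without PV replicate 3 (0.26, adjusted p = 0.179), without SST replicate 1 (adjusted p = 0.0608) and without SST replicate 3 (adjusted p = 0.113). After saline its difference had the opposite sign and missed the threshold.

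The other 7 members were not called in the home cage. Gria1 had 587, 565 and 583 CPM in SST libraries, against 558, 563 and 413 CPM in PV libraries, and Gria3 had 106, 126 and 125 CPM in SST libraries, against 95.6, 86.5 and 98.6 CPM in PV libraries. Both were higher in every SST library, by 0.18 (95% interval -0.16 to 0.51) and 0.35 (0.00 to 0.70), with adjusted p of 0.409 and 0.109.
Gria4 had 115, 104 and 97.8 CPM in SST libraries, against 126, 95.8 and 97.4 CPM in PV libraries. Grin2a had 58.1, 66.5 and 88.0 CPM in SST libraries, against 69.5, 69.6 and 73.4 CPM in PV libraries. Grin2b had 125, 137 and 123 CPM in SST libraries, against 113, 124 and 143 CPM in PV libraries. All 3 overlapped, with differences between -0.01 and 0.02 and 95% intervals within -0.38 to 0.36.
Grin2c had 10.9, 12.1 and 3.78 CPM in SST libraries, against 2.03, 6.39 and 5.23 CPM in PV libraries. Its difference of 0.98 (95% interval -0.35 to 2.31) ran opposite to that after saline and missed the threshold. Grin2d had 6.27, 13.2 and 34.4 CPM in SST libraries, against 42.5, 29.2 and 29.8 CPM in PV libraries. SST replicate 3 lay inside the PV range and the other two below it; the difference of -0.91 (95% interval -1.92 to 0.10, adjusted p = 0.151) passed the threshold without that library (-1.80, adjusted p = 0.00627) and with no filter on low counts (-0.90, adjusted p = 0.00128). Non-neuronal markers differed beside these values: the summed oligodendrocyte lineage markers were at 1060 to 1530 CPM in SST libraries of batch 4, against 224 to 408 CPM in PV libraries of batch 3, and the microglia markers at 77.3 to 108 CPM in SST libraries, against 50.8 to 55.3 CPM in PV libraries. Neither sum overlapped. These sums were scaled within each batch, unlike the member values beside them, and their part in the result was not tested.

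**Figure D2:**
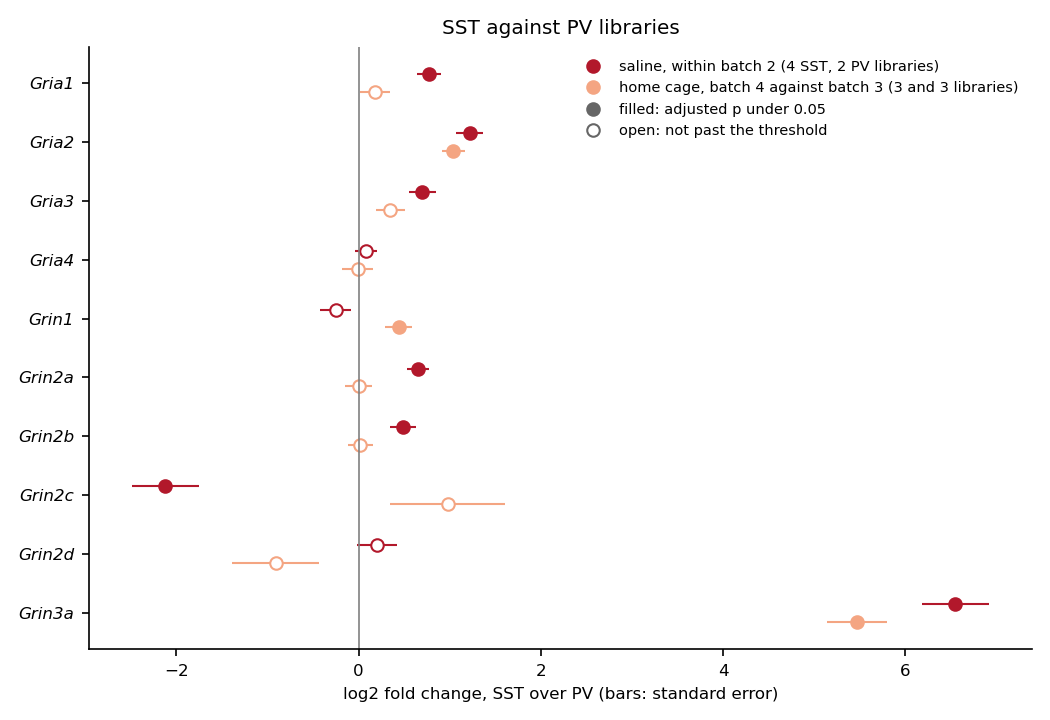
Log2 fold change of SST over PV for each member, with standard errors, after saline (dark) and in the home cage (light); filled points passed the threshold. Grin3a lies at 6.55 and 5.47 and Gria2 at 1.22 and 1.04, while Gria4, Grin1, Grin2c and Grin2d have opposite signs in the 2 comparisons.

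Levels of different subunits were compared per kilobase of exon model, as shares of their family. Gria2 made up 15 ± 1.7% of AMPA subunit mRNA in SST saline libraries (SD, n = 4) and 10.6 ± 0.762% in PV saline libraries of batch 2 (n = 2). In the home cage it made up 14.7 ± 0.703% in SST libraries and 8.86 ± 2.0% in PV libraries (n = 3 each). The ranges did not overlap in either pair. In PV saline libraries of batch 1, however, replicate 1 was at 17.9%, beside an astrocyte marker sum of 5520 CPM. Replicates 3 and 4 were at 10.6 and 12.1%, beside sums of 1360 and 1450 CPM. Gria4 showed the reverse order, with 8.37 ± 0.434% in SST saline and 13.1 ± 0.286% in PV saline libraries, and 10.3 ± 0.884% in SST home cage and 12.6 ± 1.42% in PV home cage libraries, where the ranges overlapped. These are descriptions with no test.

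Grin3a made up 46.4 ± 3.09% of NMDA subunit mRNA in SST saline libraries and 0.962 ± 0.957% in PV saline libraries of batch 2. In the home cage its share was 40.4 ± 6.11% in SST libraries and 1.86 ± 0.301% in PV libraries. Grin1 took 37.9 ± 2.25% in SST saline and 78.9 ± 5.41% in PV saline libraries, and 48.1 ± 4.51% in SST home cage and 71.8 ± 4.52% in PV home cage libraries. In SST saline libraries the order of NMDA shares was thus Grin3a, Grin1, Grin2a (9.22 ± 0.609%), Grin2b (5.31 ± 0.552%), Grin2d (1.07 ± 0.0882%) and Grin2c (0.099 ± 0.0109%). The ranges of neighbours in this order did not overlap, from 43.1 to 50.2% for Grin3a and 35.2 to 40.0% for Grin1 downwards. In PV saline libraries of batch 2 the order was Grin1, Grin2a (10.7 ± 2.1%), Grin2b (7.03 ± 2.35%), Grin2d (1.66 ± 0.00795%), Grin3a and Grin2c (0.765 ± 0.00351%), with Grin3a at 0.285 and 1.64% on both sides of Grin2c. These shares and orders depend on the exon lengths, 4368 bases for Grin1, 14967 for Grin2a and 24787 for Grin2b. Undivided reads in PV saline replicate 1 of batch 2 were 3073 for Grin1, 1703 for Grin2a and 2018 for Grin2b. Grin2b also had more reads than Grin2a in SST saline replicate 4 (8305 and 7682), and fewer in the other libraries of these groups.

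The shares of Gria1 and Gria3 differed between sets of batches. Gria3 made up 35.2 to 47.6% of AMPA subunit mRNA in every library of batches 1 and 2 and 11.5 to 18.2% in every library of batches 3 to 5. Gria1 made up 21.9 to 41.8% in batches 1 and 2 and 53.6 to 70.2% in batches 3 to 5. Both Cre lines lie on both sides of this split. Batches 1 and 2 hold all saline and PTZ libraries and batches 3 to 5 all home cage, CFC and cKO libraries, so batch and handling cannot be told apart in it. The home cage shares of the lines, and those of SST cKO libraries, also compare different batches.

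**Figure D3:**
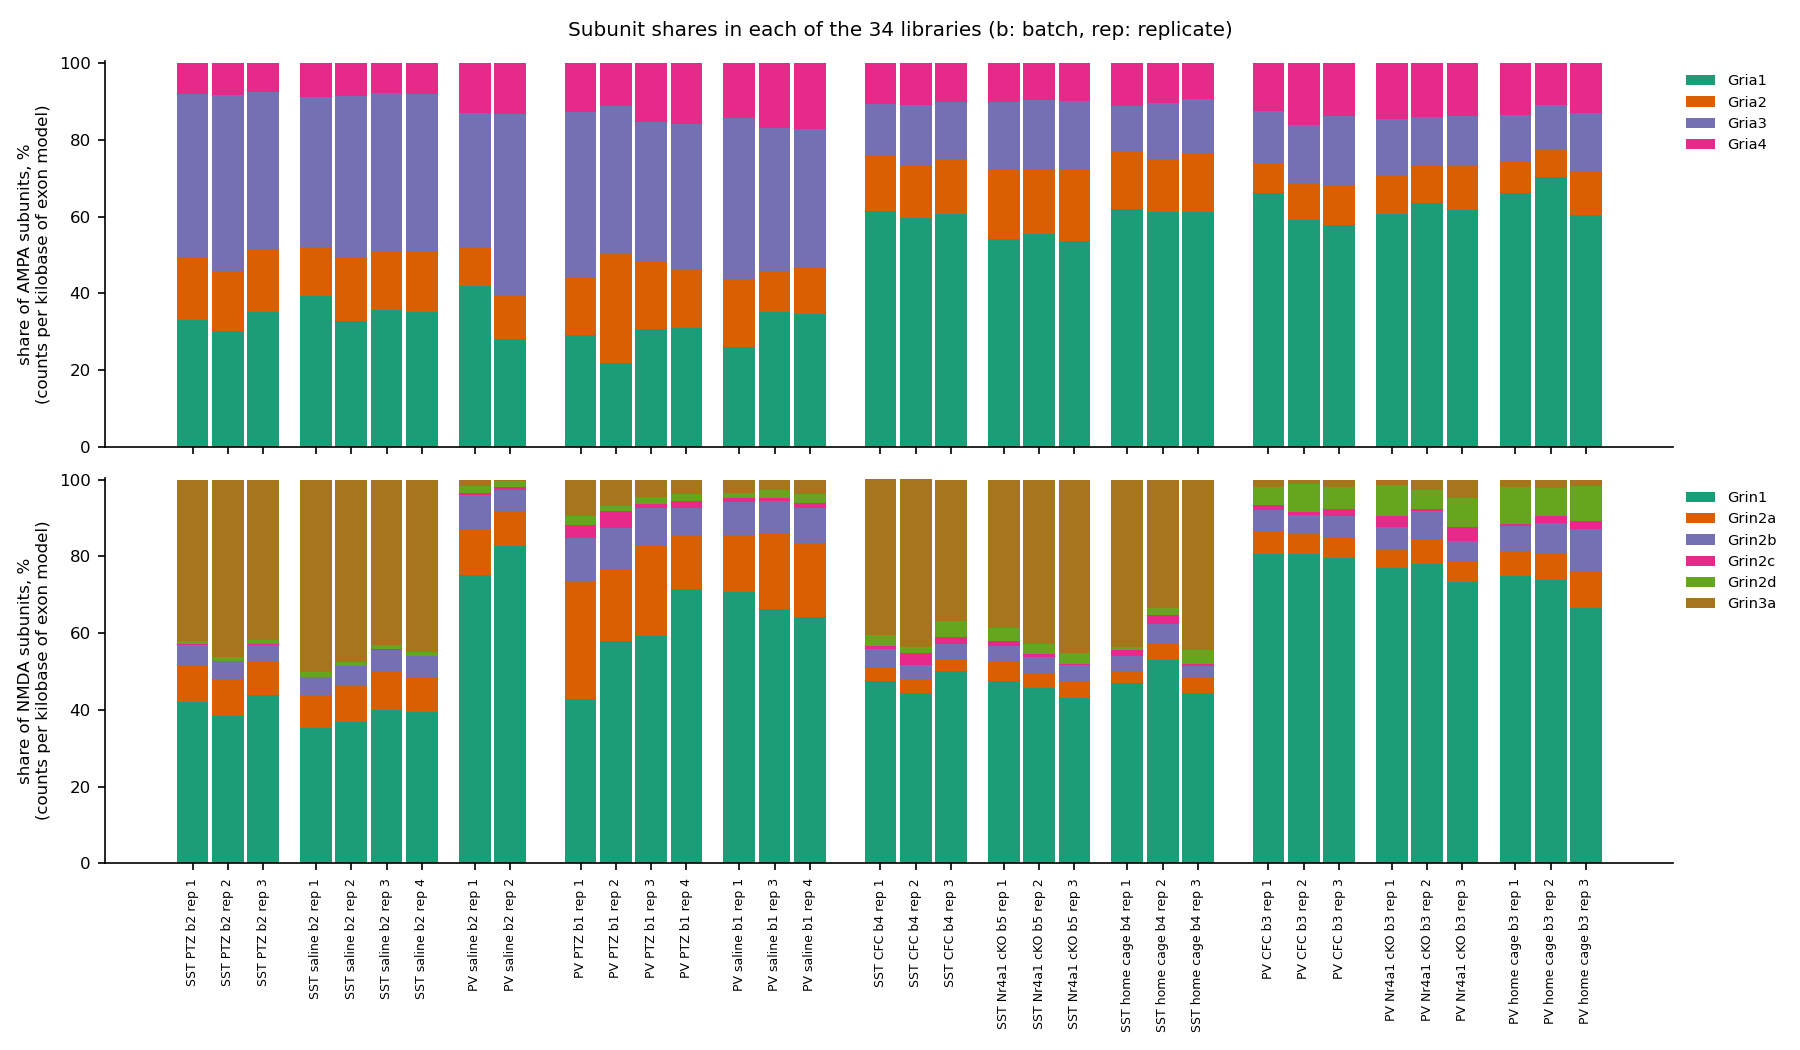
Share of each subunit in its family, in percent of counts per kilobase of exon model, as 1 stacked bar per library (AMPA above, NMDA below). Grin3a fills 33.4 to 50.2% of the NMDA bar in all SST libraries and at most 9.5% in all PV libraries, and Gria3 fills 35.2 to 47.6% of the AMPA bar in batches 1 and 2 and 11.5 to 18.2% in batches 3 to 5.

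Genes of receptor partners were counted by list in the same comparisons of lines, where 53.1% of all genes were called after saline and 35.7% in the home cage. No list was tested as a set, and the counts of 6 of 10 and 7 of 14 after saline for NMDA receptor partners and scaffolds, and of 5 of 13 and 6 of 15 in the home cage for clustering genes and scaffolds, lie near those shares. The median log2 fold changes after saline were 1.21 for AMPA auxiliary subunits, 0.52 for clustering and trafficking genes, 0.31 for NMDA receptor partners, 0.14 for postsynaptic scaffolds and 0.75 for editing enzymes, against 0.01 over all genes. In the home cage they were 0.33, 0.22, 0.75, 0.18 and 0.68 in the same order, against 0.07 over all genes. Auxiliary subunits of the AMPA receptor set its gating and delivery; after saline 8 of 16 were called higher and 3 lower in SST libraries. Shisa6 (480 ± 24.5 CPM in SST, 7.53 ± 1.45 CPM in PV; log2 fold change 6.01 ± 0.20, adjusted p = 7.92e-09) and the TARP gene Cacng5 (36.4 ± 3.16 and 1.52 ± 0.87 CPM; 4.65 ± 0.30) led, followed by Cacng3 (2.36) and the cornichon gene Cnih2 (2.24). In the home cage 7 of 16 were called higher and 3 lower, with Cacng5 at 5.37 ± 0.54, Shisa6 at 3.02 ± 0.36, Cacng4 at 1.87 ± 0.49 and Cacng2, which encodes stargazin, lower at -1.86 ± 0.15.
Of 13 clustering and trafficking genes, 7 were called higher and 4 lower after saline. Lrrtm1 (2.74), Akap5 (1.70) and the pentraxin receptor gene Nptxr (1.30) were higher and Pick1, whose product binds the AMPA receptor tail, was lower (-1.23). In the home cage 5 were higher and 0 lower, led by Nptx1 (2.69), Nptx2 (1.92), Nptxr (1.69) and Akap5 (1.49).

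Of the NMDA receptor partners, 5 of 10 tested were called higher and 1 lower after saline, and 6 of 11 higher and 1 lower in the home cage. Neto1, an auxiliary protein of NMDA and kainate receptors, was higher in both, by 1.98 ± 0.15 (864 ± 71.5 CPM in SST, 219 ± 49.1 CPM in PV) and 1.88 ± 0.16. Ephb2 (1.77) and Rph3a (1.14) were higher and Src (-0.63) lower after saline, and Srr (1.12), which makes the co-agonist D-serine, Camk2a (0.90) and Ptpn5 (0.79) were higher in the home cage.
Of the postsynaptic scaffolds, 4 of 14 tested were called higher and 3 lower after saline, and 1 of 15 higher and 5 lower in the home cage. Shank1 was lower in both (-1.12 and -1.44), while Shank3 was higher after saline (1.59) and lower in the home cage (-1.16). Dlg2 (1.03) and Homer2 (0.92) were higher after saline, and Dlg3 was higher (0.93) and Dlg4 lower (-1.1) in the home cage.

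The median of the 3 RNA editing genes after saline is the value of Adar alone. Of the 3, 1 was called higher and 1 lower in both comparisons. Adarb1 encodes the enzyme known to recode the Gria2 pore codon. It averaged 312 ± 22.9 CPM in SST saline libraries and 683 ± 39.1 CPM in PV saline libraries, a log2 fold change of -1.13 ± 0.11 (adjusted p = 6.91e-06). In the home cage it averaged 116 ± 26.7 CPM in SST and 240 ± 16.8 CPM in PV libraries, -1.05 ± 0.18 (adjusted p = 0.000229). Adar was higher in SST libraries in both, by 0.75 ± 0.16 and 1.38 ± 0.28. Gria2 and Adarb1 thus had opposite signs in each comparison.

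The acute stimuli gave no called change in any subunit. For PTZ in SST libraries (n = 3, against saline n = 4) 0 of 10 members were called with edgeR, 0 with DESeq2 and 0 with limma voom, and 0 had an unadjusted p under 0.05; of 11784 genes 0.144% were called. An unadjusted p under 0.05 was found for 511 of the 11784 genes. The SST saline libraries are the same as in the comparison of lines. The median log2 fold change of the 10 was 0.05, against -0.01 over all genes. Gria2 had 863, 879 and 846 CPM in SST PTZ libraries, against 595, 838, 747 and 730 CPM in SST saline libraries. Each PTZ library was above each saline library, by 0.25 (95% interval -0.02 to 0.51, adjusted p = 0.989). Gria3 had 1180, 1310 and 1110 CPM after PTZ, against 961, 1110, 1050 and 984 CPM after saline, a difference of 0.22 (-0.06 to 0.51). Gria1, Gria4, Grin1, Grin2a and Grin2b differed by -0.14 to 0.13, with intervals within -0.41 to 0.46, and Grin3a differed by -0.09 (-0.56 to 0.38). The sparser Grin2c and Grin2d differed by 0.44 (-0.29 to 1.16) and -0.30 (-0.70 to 0.11). Of the partner genes 1 was called: Arc, an activity-induced gene that promotes AMPA receptor removal, averaged 534 ± 108 CPM after PTZ and 120 ± 21.3 CPM after saline (2.15 ± 0.17, adjusted p = 0.000107).

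For PTZ in PV libraries (n = 4, against saline n = 3) 0 of 10 members were called, beside 0.0294% of 13598 genes. With DESeq2 0 members were called and with limma voom 0, and 3 had an unadjusted p under 0.05. So did 1875 of the 13598 genes. Values were below 0 for 9 of the 10, with a median log2 fold change of -0.66, against -0.01 over all genes. Grin2d had 4.98, 4.58, 9.88 and 12.8 CPM in PV PTZ libraries, against 15.8, 16.3 and 16.7 CPM in PV saline libraries. All PTZ libraries lay below all saline libraries, at -1.02 (95% interval -1.80 to -0.24, adjusted p = 0.309). Grin2a had 153, 186, 327 and 262 CPM after PTZ, against 383, 369 and 305 CPM after saline, with 1 PTZ library inside the saline range (-0.60, -1.18 to -0.02, adjusted p = 0.352). Differences were -0.77 for Gria1, -0.79 for Gria4 and -0.68 for Grin2b, with all PTZ libraries below all saline libraries, and -0.64 for Gria3 and -0.88 for Grin1, where the groups overlapped. Gria2 (-0.16), Grin3a (-0.06) and Grin2c (0.50) overlapped too.

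PTZ replicate 1 held the low values of most members. PTZ replicate 2 was low for many but not all of them. It had the highest PTZ values of Gria2 (529 CPM) and Grin2c (15.9 CPM), and had 34.8 CPM of Grin3a. PTZ replicate 1 was the lowest of the 7 libraries for 9 of the 10 members, and the median over members of its level, relative to the mean of the batch, was 0.42; it was 0.66 in PTZ replicate 2, 1.01 and 1.11 in PTZ replicates 3 and 4, and 1.02 to 1.38 in the saline libraries. Without both libraries the difference was -0.52 for Grin2d (adjusted p = 0.669) and lay between -0.36 and 0.36 for the other 9. These libraries were left out after their low subunit levels were seen. The choice itself makes a decrease smaller, so no conclusion is drawn from it. The summed level of 10 PV markers was 3060 to 7790 CPM after PTZ, against 7970 to 11300 CPM after saline, lowest in PTZ replicate 2 (3060) and replicate 1 (5100). The 8 pan-GABAergic markers summed to 2420 to 6080 CPM after PTZ, against 5140 to 8510 CPM after saline. All 12 microglia markers had values above 0, with sums of 70.8 to 557 CPM after PTZ, against 52.6 to 158 CPM after saline, highest in PTZ replicate 4. Values were also above 0 for 11 of 11 vascular and mural markers (sums of 37.5 to 102 CPM after PTZ, against 16.9 to 56.7 CPM after saline) and for 11 of 11 markers of oligodendrocytes and their precursors. The oligodendrocyte sums were 641 to 3490 CPM after PTZ, against 852 to 2310 CPM after saline, and the lowest was in PTZ replicate 1. The part of these in the result was not tested.

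The difference between the responses of the lines to PTZ (SST minus PV, batches 2 and 1) was called for 0 of 10 members and 0% of 11743 genes with edgeR, for 0 members with DESeq2 and for 0 with limma voom; 1 member had an unadjusted p under 0.05. It was Gria3, at 0.82 (95% interval 0.09 to 1.55, adjusted p = 0.82). Without PV PTZ replicates 1 and 2, left out for their low levels, Gria3 was at 0.44. The other differences were 0.75 for Gria1, 0.36 for Gria2, 0.83 for Gria4, 0.97 for Grin1, 0.58 for Grin2a, 0.51 for Grin2b, -0.11 for Grin2c, 0.69 for Grin2d and -0.07 for Grin3a. Of the 11743 genes, 602 had an unadjusted p under 0.05. Batch and line cannot be told apart in this difference.

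For CFC in SST libraries (n = 3, against home cage n = 3) 0 of 10 members were called, with 0 at an unadjusted p under 0.05, 0 with DESeq2 and 0 with limma voom, beside 0.0411% of 14614 genes (0.0342% higher, 0.00684% lower). Their median log2 fold change was 0.06, against 0 over all genes. Of the 14614 genes, 814 had an unadjusted p under 0.05. Gria3 had 148, 165 and 145 CPM after CFC, against 113, 141 and 137 CPM in the home cage. All CFC libraries were above all home cage libraries, by 0.23 (-0.01 to 0.48, adjusted p = 0.916). Gria4 had 135, 130 and 113 CPM after CFC, against 123, 116 and 107 CPM in the home cage, and overlapped (0.13, -0.11 to 0.37). Grin3a differed by -0.10 (-0.51 to 0.32). Gria1, Gria2, Grin1, Grin2a and Grin2b differed by -0.15 to 0.08, with intervals within -0.53 to 0.26, and Grin2c by 0.36 (-0.82 to 1.54) and Grin2d by 0.32 (-0.99 to 1.64); all 7 overlapped. Values of all 11 vascular and mural markers were below 0, with sums of 46.9 to 77.9 CPM after CFC, against 131 to 620 CPM in the home cage. Astrocyte sums (532 to 642 against 677 to 825 CPM) and microglia sums (62.4 to 68.7 against 77.3 to 108 CPM) were also lower with no overlap. All 11 oligodendrocyte lineage markers were below 0, while their sums overlapped (846 to 1110 against 1060 to 1530 CPM). The part of these markers in the member values was not tested.

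For CFC in PV libraries (n = 3, against home cage n = 3) 0 of 10 members were called, with 1 at an unadjusted p under 0.05, 0 with DESeq2 and 0 with limma voom, beside 0% of 15150 genes. Their median log2 fold change was 0.13, against 0.02 over all genes. An unadjusted p under 0.05 was found for 2834 of the 15150 genes. Grin1 had 248, 282 and 252 CPM after CFC, against 222, 196 and 142 CPM in the home cage. Each CFC library was above each home cage library, by 0.48 (0.11 to 0.85, adjusted p = 0.189), and the difference was called without home cage replicate 1 (0.63, adjusted p = 0.0434). Grin2b had 97.2, 95 and 105 CPM after CFC, against 109, 115 and 134 CPM in the home cage; all CFC libraries were lower, at -0.27 (-0.58 to 0.04, adjusted p = 0.328). Gria3 (0.31, -0.09 to 0.71) was higher and Grin2a (-0.13, -0.42 to 0.16) lower in every CFC library, and neither was called. Gria1 (-0.06), Gria2 (0.14), Gria4 (0.21), Grin2c (0.14), Grin2d (-0.24) and Grin3a (0.13) overlapped. Marker sums separated the same libraries: the pan-GABAergic markers summed to 7080, 7170 and 6210 CPM after CFC, against 6050, 5120 and 3970 CPM in the home cage, and the SST markers to 695 to 830 CPM after CFC, against 894 to 1370 CPM in the home cage. Values were above 0 for 5 of the 8 pan-GABAergic markers and for 2 of the 9 SST markers tested, with the others below 0. The part of these markers in the Grin1 value was not tested. The difference between the responses of the lines to CFC was called for 0 of 10 members and 0% of 16081 genes with edgeR, and for 0 members with DESeq2 and with limma voom. Grin1 was the 1 member with an unadjusted p under 0.05, at -0.50 (-0.95 to -0.04, adjusted p = 0.285); batch and line cannot be told apart there. Of the 16081 genes, 2452 had an unadjusted p under 0.05 for this difference between responses. Values were -0.04 to 0.21 for the 4 Gria genes, 0.04 for Grin2a and 0.30 for Grin2b. They were 0.29 for Grin2c, 0.62 for Grin2d and -0.15 for Grin3a.

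Libraries labelled Nr4a1 cKO were compared with home cage libraries of the same line; these are the same home cage libraries that serve CFC and the comparison of lines. In SST libraries (batch 5 against batch 4, n = 3 each) 2 of 10 members were called higher and 0 lower, beside 8.10% of 15453 genes (3.51% higher, 4.59% lower). The median log2 fold change of the 10 was 0.13, against 0.02 over all genes. With DESeq2 2 members were among the 2126 genes called, and with limma voom 2 were among 1403. Gria3 had 177, 230 and 226 CPM in SST cKO libraries, against 115, 141 and 138 CPM in SST home cage libraries. It rose by 0.68 ± 0.12 (adjusted p = 0.00752), with no overlap, and was called when any 1 library was left out. Gria2 had 342, 403 and 444 CPM in cKO libraries, against 278, 261 and 291 CPM in home cage libraries. It rose by 0.52 ± 0.10 (adjusted p = 0.012), and this call was lost without cKO replicate 2 (0.51, adjusted p = 0.0557) or cKO replicate 3 (0.43, adjusted p = 0.0569).

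Genotype and batch cannot be told apart in this comparison, and other values moved with it. Sst was at 3060, 2960 and 3400 CPM in SST cKO libraries, against 5980, 5520 and 5900 CPM in SST home cage libraries. Among the 10 SST markers, Sst included, 4 had positive and 6 negative values. Their median log2 fold change was -0.17, and 1 was called lower and 0 higher. All 12 excitatory neuron markers had negative values (sums of 217 to 231 CPM in cKO, against 337 to 405 CPM in home cage libraries). So did all 12 astrocyte markers (517 to 548 against 677 to 825 CPM) and all 11 microglia markers tested (46.6 to 58.5 against 77.3 to 108 CPM). None of these sums overlapped, and the home cage sums were scaled within batch 4 alone. The part of these in the result was not tested. The other 8 members were not called: Gria1, Gria4, Grin1, Grin2a, Grin2b and Grin3a differed by -0.14 to 0.21 with intervals within -0.47 to 0.48, while Grin2c (-0.90, -2.08 to 0.27) and Grin2d (0.24, -1.0 to 1.48) were less precise. Among partners, Akap5 (0.71, adjusted p = 0.0307) and Adar (0.68, adjusted p = 0.00169) were called higher, and Camk2a (-1.32), Shank1 (-0.77), Dlgap3 (-0.46) and Dlgap4 (-0.42) lower. Camk2a is also abundant in excitatory neurons.

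In PV libraries labelled Nr4a1 cKO (n = 3, against home cage n = 3, both of batch 3) 0 of 10 members were called, with 2 at an unadjusted p under 0.05, 0 with DESeq2 and 0 with limma voom, beside 0.139% of 15150 genes (0.0990% higher, 0.0396% lower). Their median log2 fold change was 0.21, against 0.04 over all genes. Of the 15150 genes, 2699 had an unadjusted p under 0.05. The oligodendrocyte lineage markers summed to 418 to 991 CPM in PV cKO libraries, against 224 to 408 CPM in PV home cage libraries, and their part in these values was not tested. Grin3a had 9.27, 13.6 and 23.8 CPM in PV cKO libraries, against 9.21, 9.91 and 5.78 CPM in PV home cage libraries. The groups overlapped, and the difference was 0.89 (0.16 to 1.63, adjusted p = 0.21). cKO replicate 3, the highest, also had 386 CPM of Sst and 156 CPM of Pvalb. In cKO replicates 1 and 2, Sst was at 123 and 135 CPM and Pvalb at 1050 and 1350 CPM. PV home cage replicates 1, 2 and 3 had 125, 215 and 464 CPM of Sst and 155, 190 and 163 CPM of Pvalb. Home cage replicate 3 thus had the highest Sst beside the lowest Grin3a (5.78 CPM). A link of Grin3a to these markers was not tested. Grin1 had 283, 225 and 216 CPM in PV cKO libraries, against 222, 196 and 142 CPM in PV home cage libraries, and overlapped (0.37, 0.01 to 0.74, adjusted p = 0.276). Gria2 and Gria3, called in SST libraries, differed here by 0.31 (-0.02 to 0.64) and 0.16 (-0.25 to 0.56); the difference between the lines was not tested. Gria1 (-0.01), Gria4 (0.26), Grin2a (-0.20), Grin2b (-0.11), Grin2c (1.07) and Grin2d (-0.05) were not called.

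**Figure D4:**
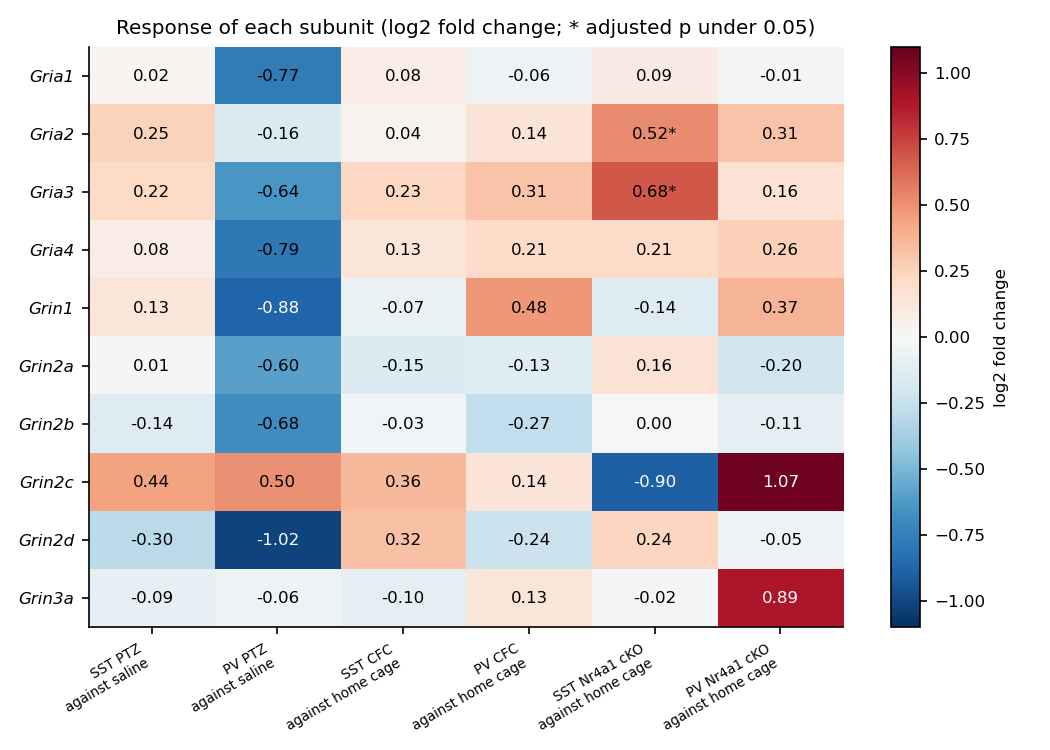
Log2 fold change of each member (rows) for PTZ, CFC and Nr4a1 cKO in SST and PV libraries (columns), with asterisks for adjusted p under 0.05. The 2 asterisks stand at Gria2 (0.52) and Gria3 (0.68) in SST libraries labelled Nr4a1 cKO, and 9 of the 10 values for PTZ in PV libraries are below 0.

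Of the partner lists where no gene passed, the member with the smallest p is given for each. For PTZ in PV libraries these were Cacng8 (-1.24), Arc (1.33), Grina (-0.79), Dlg1 (0.63) and Adarb1 (-0.48), with adjusted p of 0.306 to 0.435. For PTZ in SST libraries they were Cnih2 (-0.36), Srr (0.20), Homer1 (0.30) and Adarb1 (-0.20). For CFC in SST libraries they were Shisa7 (0.45), Arc (1.27), Srr (-0.44), Shank2 (-1.23) and Adar (-0.10). For CFC in PV libraries they were Cacng2 (-0.46), Arc (1.55), Fyn (0.50), Shank1 (-1.0) and Adar (0.97). For Nr4a1 cKO in SST libraries it was Cnih2 (-0.34), and in PV libraries they were Cacng3 (0.47), Nptxr (0.73), Ephb2 (1.08), Shank2 (-1.40) and Adar (1.30). Arc averaged 268 ± 31.1 CPM after PTZ and 107 ± 91.3 CPM after saline in PV libraries.

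The genes most like each member were sought among 10166 genes over the 34 libraries, by Pearson's r of log2(CPM + 1) after the mean of each table was subtracted. The values are descriptions, and the points share libraries, depth and the split between Cre lines in batch 2. Nearest to Grin3a were Elfn1 (r = 0.982), itself a marker of SST interneurons, Synpr (0.969) and Man1a (0.967). Nearest to Gria2 were Ncam1 (0.926), Ncam2 (0.898) and Vldlr (0.895). Clcn3 (0.963), Syngr3 (0.926) and Slc7a14 (0.923) were nearest to Gria1, Astn1 (0.922), Nrxn3 (0.901) and Slitrk4 (0.899) to Gria3, and Rtn3 (0.921), Slc2a3 (0.912) and Scamp1 (0.912) to Gria4. App (0.960), Enpp5 (0.959) and Aplp2 (0.945) were nearest to Grin1, Syt1 (0.885), Cd47 (0.880) and Cntnap2 (0.878) to Grin2a, and Sez6l (0.846), Cd81 (0.841) and Hipk4 (0.839) to Grin2b. For the sparse Grin2c and Grin2d the nearest were weaker: Cnppd1 (0.745), Pbx3 (0.706) and Megf11 (0.694), and B4galt5 (0.846), Rnf130 (0.832) and Hnrnpd (0.8).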

How the data were processed

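Each table holds reads per gene in ribosome-bound RNA of 1 batch. Batches 2 to 5 are whole-number counts as deposited, and batch 1 holds estimated counts as deposited (11.3% of values not whole), rounded here. Per the submitters' processing notes, the tools named are STAR 2.5.2a, cutadapt 1.18, HTSeq 0.11.0 and DESeq2, listed with no role, order or batch, and the builds named are mm10 and GRCm39; strand settings are not given in the sources used here, so reads of overlapping antisense genes may be included. Groups were taken from the labels. All genes passing filterByExpr were tested with edgeR 4.0.16 in R 4.3.3 (TMM, robust quasi-likelihood F test, Benjamini-Hochberg adjustment), on all libraries of the tables compared. Intervals use each gene's degrees of freedom. Scripts were tested on simulated data. Alternatives were DESeq2 1.42.0, limma 3.58.1 voom, DESeq2 size factors, no filter, a replicate block, only the compared groups, and leaving out libraries; the setting without PV PTZ replicates 1 and 2 was chosen after seeing the data. Shares divide counts by the union of coding-gene exons in GENCODE M21 (GRCm38).

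All 10 members are named in every comparison. From each partner list up to 4 called genes are named, by size of change, or otherwise the 1 with the smallest p; the 3 nearest genes are named for likeness, among genes with a mean of at least 5 CPM. One further partner list and 1 pore-site sequence are not reported here. The members and lists were chosen with earlier results of these data known. Replicate numbers were checked as pairs: correlations of same-numbered libraries' deviations ran from -0.45 to 0.52. The libraries that matched best with their own number were 3 of 4 for SST against PV saline and 0 of 6 for SST against PV home cage. With so few libraries per group, these values cannot show whether the numbers pair libraries. The main fits treat libraries as unpaired.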

Additional observations from a re-analysis of the deposited data

How the results depend on the processing

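Of 1336 member values under the alternatives, 92 changed sign, 0 of them in called members, and the largest log2 fold change among those that did was 0.36. The cause was not tested. With the replicate block, Gria1 and Grin2a under PTZ in SST libraries were at -0.00 and -0.00, Grin2a in SST against PV home cage libraries was at -0.00, and Grin2c in the PTZ response difference was at 0.31; the block ended 1 member call (Grin2b in SST against PV saline libraries, 0.38, adjusted p = 0.0901) and changed no other. With no filter, Gria1 in PV cKO libraries was at 0.02, Grin2b and Grin3a in SST cKO libraries at 0.05 and 0.02, and Gria4 in SST against PV home cage libraries at 0.01. With limma voom, Grin3a in SST cKO libraries was at 0.00 and Grin2a in SST against PV home cage libraries at -0.01. With only the compared groups, Grin2b in SST cKO libraries was at 0.00. Without PV PTZ replicates 1 and 2, Gria2 and Grin3a under PTZ in PV libraries were at 0.07 and 0.04, and Grin2c in the PTZ response difference at 0.05.

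Leaving out 1 library gave these ranges of log2 fold change where the sign changed. For PTZ in SST libraries they were -0.02 to 0.06 for Gria1 and -0.03 to 0.09 for Grin2a. For PTZ in PV libraries they were -0.32 to 0.15 for Gria2 and -0.22 to 0.21 for Grin3a. For SST against PV saline libraries they were -0.03 to 0.20 for Gria4, -0.57 to 0.16 for Grin1 and -0.07 to 0.51 for Grin2d. For SST against PV home cage libraries they were -0.09 to 0.13 for Gria4, -0.19 to 0.13 for Grin2a and -0.06 to 0.09 for Grin2b. For CFC in SST libraries they were -0.02 to 0.08 for Gria2, -0.16 to 0.02 for Grin1, -0.29 to 0.04 for Grin2a, -0.15 to 0.09 for Grin2b, -0.09 to 0.69 for Grin2c, -0.11 to 1.2 for Grin2d and -0.30 to 0.11 for Grin3a. For CFC in PV libraries they were -0.20 to 0.03 for Gria1, -0.22 to 0.47 for Grin2c and -0.07 to 0.27 for Grin3a. For SST cKO libraries they were -0.05 to 0.08 for Grin2b, -0.14 to 1.12 for Grin2d and -0.22 to 0.19 for Grin3a. For PV cKO libraries they were -0.14 to 0.17 for Gria1, -0.01 to 0.36 for Gria3, -0.17 to 0.02 for Grin2b and -0.32 to 0.20 for Grin2d. In the CFC response difference they were -0.13 to 0.05 for Gria2, -0.09 to 0.04 for Gria3, -0.16 to 0.12 for Gria4, -0.09 to 0.23 for Grin2a, -0.16 to 0.66 for Grin2c and -0.37 to 0.05 for Grin3a. In the PTZ response difference they were -0.34 to 0.25 for Grin2c and -0.36 to 0.08 for Grin3a. Members called ranged over 0 to 1 for CFC in PV libraries and 1 to 2 for SST cKO libraries. For SST against PV home cage libraries, leaving out 1 library changed the calls of Grin1 and Grin2d, as given above. With no library left out, members called ranged over 6 to 7 for SST against PV saline libraries and 2 to 4 in the home cage.

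The share of Gria2 among AMPA subunits was 24.6% in SST saline and 17.9% in PV saline libraries with counts not divided by length, and 24.9% and 18.2% per kilobase of coding length. Leaving out 1 library gave 14.5 to 15.8% in SST saline and 10.1 to 11.2% in PV saline libraries. Over all genes, DESeq2 called 215 genes for PTZ in PV libraries, against 4 with edgeR, 745 against 0 for CFC in PV libraries, 669 against 21 for PV cKO, 102 against 6 for CFC in SST libraries, 38 against 17 for PTZ in SST libraries and 2126 against 1252 for SST cKO. For SST against PV libraries it called 6628 against 6254 after saline and 6337 against 5744 in the home cage. Counts were lowest for Grin2c (20 to 29 reads per SST saline library) and for Grin3a in PV saline libraries of batch 2 (115 and 21 reads). Where 1 of the 2 PV saline libraries of batch 2 was left out, the spread came from the other groups.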
